A study of Mus musculus with 2 samples.

Results

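The transfer RNA genes of the mouse autosomes were examined in a map of H3K4me3, a chromatin mark found at promoters, in fetal male germ cells. All 391 genes annotated as tRNA on chromosomes 1 to 19 were taken from RefSeq GRCm38.p6, the build also called mm10, out of 430 in the whole table. Of these, 386 have a position on their chromosome, and the other 5 carry scaffold coordinates under 3 Mb, where no autosome has a peak, so they were not analysed further. Each gene was taken with 1 kb either side, and 302 of the 135064 H3K4me3 peaks overlapped such a window. A gene with at least 1 such peak is called marked.

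The cells were prospermatogonia of mouse embryos at E17.5, sorted on an Oct-GFP reporter, and 130000 cells went into each CUT&RUN assay. In this assay a nuclease tethered by an antibody cuts out the chromatin carrying the mark, and the pieces are sequenced. There was 1 H3K4me3 library, and the 1 IgG library was left out here. With 1 library there is no replicate error and no test between groups. Shares carry 95% Wilson intervals, and pileups and folds of single peaks 95% exact Poisson intervals, both of which cover counting error only. Medians over peaks carry 95% intervals from the ranks of the peaks, which take peaks as independent. Neighbouring tRNA genes can share a peak, so genes are not independent of each other. A peak list from a cell population does not tell a mark in all cells from a stronger mark in some of them.

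Transfer RNAs carry amino acids to the ribosome and read codons through their anticodon. Their genes are transcribed by RNA polymerase III, which is recruited through a promoter inside the gene: the A box and the B box are bound by the factor TFIIIC, which brings TFIIIB to the start of the gene. Many tRNA genes lie in clusters, and active ones are known to sit in open chromatin beside nucleosomes that carry marks better known from genes of RNA polymerase II. A gene symbol such as n-TRtcg5 gives the amino acid in the one-letter code (R, arginine), the anticodon (tcg) and a number.

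The internal promoter can be seen in the 4 tRNA genes that lie wholly inside a window of the RefSeq promoter table, which holds 250 bases before and 50 after annotated start sites in GRCm38.p6. They are printed in the direction of the tRNA, with the A box, at its usual place near the start, and the B box in capitals.
n-TRtcg5 (Arg, chr7:79466419-79466491, plus strand): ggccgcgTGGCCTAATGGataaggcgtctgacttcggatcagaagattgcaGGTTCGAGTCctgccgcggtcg
n-TTagt9 (Thr, chr7:35234770-35234843, minus strand): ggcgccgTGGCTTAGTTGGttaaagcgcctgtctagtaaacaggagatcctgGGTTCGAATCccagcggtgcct
n-TAagc16 (Ala, chr13:21222586-21222657, plus strand): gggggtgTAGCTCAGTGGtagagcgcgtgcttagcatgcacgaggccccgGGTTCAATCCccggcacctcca
n-TVcac9 (Val, chr13:23446142-23446214, minus strand): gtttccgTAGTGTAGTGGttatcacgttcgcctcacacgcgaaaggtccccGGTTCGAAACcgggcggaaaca
The A box was searched as T, any base, G, any 3 bases, A, any 2 bases and GG, with 1 more free base before the GG in n-TTagt9, and began at base 8 in each gene. The B box was searched as GGTTC, any base, A, any 2 bases and C, and began at base 51, 52, 52 and 53 in n-TAagc16, n-TRtcg5, n-TVcac9 and n-TTagt9. On either strand, 2.62% of the 31396 autosomal promoter windows held the B box letters and 39.5% the A box letters. A match is a description of these letters only.

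All 4 of these genes were marked. A peak covered n-TRtcg5, n-TTagt9 and n-TAagc16 whole, with 36, 37 and 43 fragments at its summit. The peak of n-TVcac9 ended 86 bp short of the gene and had 33 fragments (interval 22.7 to 46.3).

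The promoters of Polg and Polr3e are shown because each holds a tRNA gene, or most of one, beside the start site of a protein-coding gene. n-TRtcg5 lies upstream of Polg, the gene of the mitochondrial DNA polymerase, and runs away from it. n-TLaag4, a leucine tRNA gene at chr7:120917517-120917598, lies upstream of Polr3e, which encodes a subunit of RNA polymerase III, and runs the same way. The windows are printed in the direction of the protein-coding gene, with the tRNA gene in capitals, and of n-TLaag4 the window holds the last 71 of 82 bases.
Polg (chr7:79466224-79466523, minus strand): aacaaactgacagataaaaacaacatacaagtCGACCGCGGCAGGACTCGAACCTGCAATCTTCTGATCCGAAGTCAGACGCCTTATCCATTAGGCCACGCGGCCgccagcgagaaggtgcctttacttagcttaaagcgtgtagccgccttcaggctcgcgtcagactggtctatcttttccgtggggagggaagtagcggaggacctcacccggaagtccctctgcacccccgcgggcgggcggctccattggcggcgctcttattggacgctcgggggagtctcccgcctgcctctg
Polr3e (chr7:120917528-120917827, plus strand): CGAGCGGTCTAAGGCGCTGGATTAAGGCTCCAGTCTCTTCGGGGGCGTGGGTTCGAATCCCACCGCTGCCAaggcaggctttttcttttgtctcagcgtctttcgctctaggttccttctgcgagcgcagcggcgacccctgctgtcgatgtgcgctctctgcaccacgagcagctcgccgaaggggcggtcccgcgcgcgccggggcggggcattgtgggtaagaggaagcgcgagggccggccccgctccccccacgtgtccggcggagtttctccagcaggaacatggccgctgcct
The window of n-TRtcg5 held a peak of 1197 bp over the tRNA gene and a further peak of 1485 bp with 48 fragments on the Polg side. The window of n-TLaag4 held 3 peaks, of 188, 365 and 800 bp, with 24, 24 and 29 fragments. The peak of 365 bp began 8 bases before the end of the tRNA gene. At both loci a mark of the tRNA gene cannot be told apart from a mark of the neighbouring promoter.

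Most tRNA genes were marked. Of 386 genes, 256 had a peak within 1 kb (66.3%, Wilson interval 61.5 to 70.9). The same windows moved by 100 kb towards higher coordinates met a peak in 95 cases (24.6%, 20.6 to 29.1), and those moved the other way in 98. In clusters longer than 100 kb, some moved windows still lay inside the same cluster. Of tiles of 2072 bp laid end to end over the autosomes, 11.9% met a peak. Among protein-coding genes, 44.2% of ends and 71.5% of annotated start sites had a peak within 1 kb. Of all annotated autosomal genes, which differ in length, 62.8% had a peak inside or within 1 kb. The share of tRNA genes was above that of moved windows and of protein-coding gene ends in this library, below that of start sites, and its interval held that of all annotated genes.

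Other short noncoding genes did not show such shares with the same windows. Marked were 23.7% of 1136 miRNA genes, 20.2% of 1276 snoRNA genes and 14.6% of 924 snRNA genes. Over 5 kb from any protein-coding gene end, 170 of 282 tRNA genes were marked (60.3%, 54.5 to 65.8), against 20.6% and 25.5% of their windows moved up and down the chromosome. At that distance 13.4% of miRNA, 15.8% of snoRNA and 12.1% of snRNA genes were marked, against 12.1%, 10.9% and 11.1% of their own moved windows. The intervals overlapped those of the moved windows for miRNA and snRNA genes but not for snoRNA genes. None of the Wilson intervals of these classes reached that of the tRNA genes.

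More marked genes had peaks only beside the gene than over it, a direction that the flanks favour, being far longer than the gene. A peak overlapped the gene itself in 115 of 386 cases (29.8%, 25.4 to 34.5), against 8.81% of moved genes and 3.82% of tiles of the length of a tRNA gene. It covered the whole gene in 92 cases. Of the other marked genes, 98 had peaks on 1 side and 43 on both sides. The summit nearest to a marked gene lay at a median of 352 bp from its middle, with quartiles of 194.5 and 582.5 bp, and within 100 bp in 21 genes. Peaks over a gene had a median width of 836 bp and peaks beside one 418.5 bp, a direction that the split favours, since a wider peak is more likely to reach the gene. Their median pileups were 40 and 39 fragments.

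**Figure D1:**
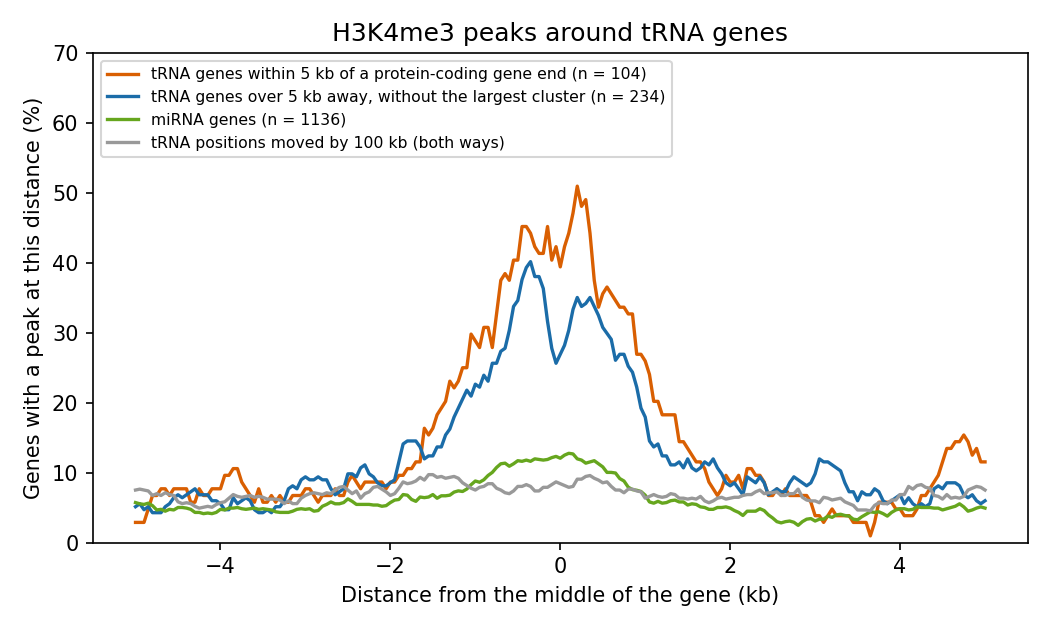
Share of genes covered by an H3K4me3 peak (y axis, %) at each distance from the middle of the gene (x axis, kb, along the chromosome, since tRNA strands are not in the table) for tRNA genes within 5 kb of protein-coding gene ends, those farther away without the largest cluster, miRNA genes and tRNA positions moved by 100 kb. Coverage around the farther tRNA genes, without that cluster, has a dip at the gene, with 26.9% at the middle and 37.6% at 350 bp on the mean of both sides, and miRNA genes have 12.1% at the middle.

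The plot of coverage by distance shows a dip at the gene itself. With both sides averaged, coverage by peaks around all 386 genes was 26.9% at the middle and 34.7% at 350 bp. It was 19.7% at 1 kb and 5.44% at 5 kb, against a mean of 7.08% at moved positions. For tRNA genes over 5 kb from protein-coding gene ends and outside the largest cluster, it was 26.9% at the middle and 37.6% at 350 bp, and with that cluster 22.3% and 31.2%. For the 104 genes within 5 kb of an end, it was 39.4% at the middle and 46.2% at 150 bp. miRNA genes had 12.1% at the middle and a highest value of 12.5% at 100 bp. The sources used here do not say how reads from repeated sequence were placed, and its part in the dip was not tested.

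The share of marked tRNA genes was highest near protein-coding genes and was above that of moved windows at each distance, with overlapping intervals beyond 100 kb. Of 47 tRNA genes within 1 kb of a protein-coding gene end, 43 were marked (91.5%, 80.1 to 96.6), against 34.0% of their moved windows. At 1 to 5 kb, 43 of 57 were marked (75.4%, 62.9 to 84.8), against 36.8%. At 5 to 20 kb, 112 of 154 were marked (72.7%, 65.2 to 79.1), against 16.2% of their moved windows. At 20 to 100 kb, 52 of 98 were marked (53.1%, 43.3 to 62.6), against 31.6% of moved windows. Of the 67 genes outside the largest cluster, 77.6% (66.3 to 85.9) were marked. The 31.6% includes the moved windows of that cluster, so it is not a match for the 77.6%. Beyond 100 kb, 6 of 30 were marked (20%, 9.51 to 37.3), against 2 of 30 moved windows (6.67%, 1.85 to 21.3), with overlapping intervals. Outside the largest cluster 6 of 13 were marked, a share to which the 2 of 30 moved windows are likewise no match. Counting ends of all annotated genes other than tRNA, 96 of 173 genes over 5 kb away were marked (55.5%, 48.0 to 62.7).

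**Figure D2:**
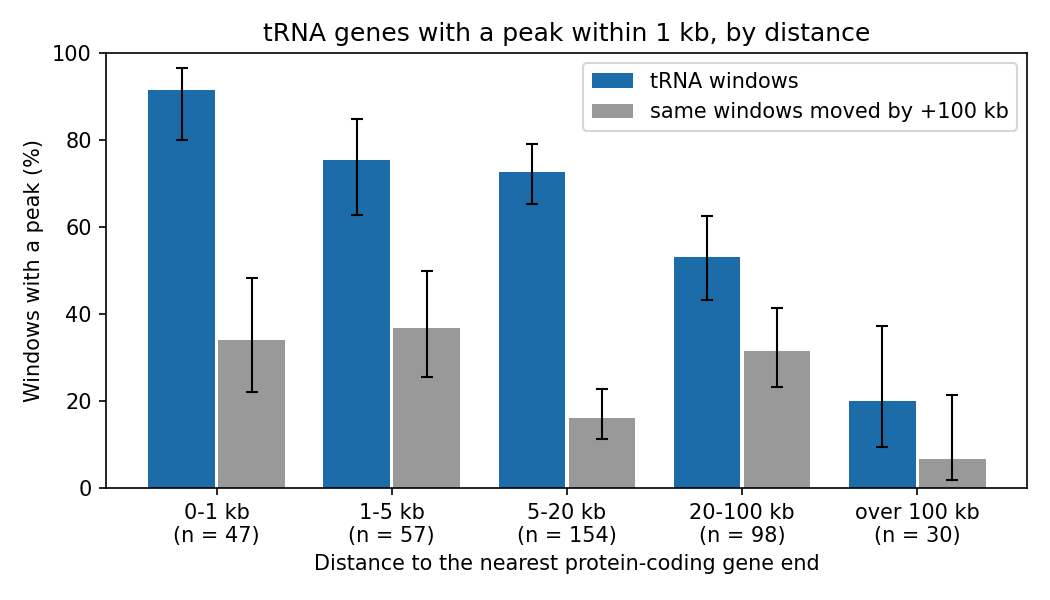
Share of tRNA windows with a peak (y axis, %) by distance to the nearest protein-coding gene end (x axis), beside the same windows moved by 100 kb; error bars are 95% Wilson intervals. In the bin of 5 to 20 kb, 72.7% of tRNA windows had a peak against 16.2% of moved windows.

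Peaks at distant tRNA genes had pileups like those near genes. The 189 peaks whose tRNA genes all lay over 5 kb away had a median summit pileup of 40 fragments and a median fold of 3.90, against 39 fragments and 3.73 for the 113 peaks nearer than that. The fold was read as the summit pileup over the local background of the peak caller, with a small constant added to both. Of the 282 distant genes, 257 had a nearest protein-coding gene that was itself marked at an end, and 153 of these were marked. Where the nearest protein-coding gene was unmarked, 17 of 25 were marked (68%, 48.4 to 82.8). Outside the largest cluster the first share was 73.2%, within the interval of the second.

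Nearly all tRNA genes at a protein-coding start site were marked. Within 1 kb of an annotated start site lay 31 tRNA genes, of which 30 were marked. Of all protein-coding start sites, 71.5% had a peak within 1 kb. A mark of such a tRNA gene cannot be told apart from a mark of the neighbouring promoter. The neighbours include Knl1, a kinetochore gene, with n-TSgct7 at 288 bp and 45 fragments. Prmt5, an arginine methyltransferase gene, has n-TRacg6 at 226 bp with 34 fragments, and Ndufs7, a gene of respiratory complex I, has n-TNgtt7 and n-TFgaa3 under 1 peak of 35 fragments. The exception was n-TMcat9, 625 bp from the start of the histone gene H4c8. Of 20 genes within 1 kb of an end and with no start site that near, 17 were marked. Of all protein-coding gene ends, 44.2% had a peak within 1 kb.

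Among the distant genes, 6 of the 10 highest folds were at genes outside clusters. n-TCgca53, 66 kb from Acpp on chromosome 9, had a 731 bp peak at a fold of 9.89 (6.97 to 13.7) and 35 fragments (24.4 to 48.7). That peak lay 826 bp from the gene, so it only just reached the window. n-TSgct1 on chromosome 1 followed with 9.38 and 41 fragments, from a peak that ended 4 bp from the gene. n-TGgcc9, 68572 bp from Trim2 on chromosome 3, had 8.64 and 40 fragments over the gene.

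The other distant genes of highest fold lay between 7.55 and 8.43. They were n-TKctt7 with 55 fragments, n-TPagg6 with 50, n-TItat14 with 53, n-TMcat3 with 23, n-TEttc8 with 62, n-TGgcc3 with 40 and n-TIaat15 with 41. A peak overlapped 5 of these 7 genes, all but n-TKctt7 and n-TMcat3. n-TMcat3 lay 294829 bp from the nearest protein-coding gene end, that of Khdrbs3. Near protein-coding genes, n-TEctc9 reached 8.13, n-TAagc9 7.80 beside Ppp6r3, and n-THgtg2 7.71.

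The tRNA genes fell into 31 clusters of at least 2 genes, joined over gaps of up to 50 kb, and 92 genes outside them. Of 294 clustered genes 196 were marked (66.7%, 61.1 to 71.8), and of 92 others 60 (65.2%, 55.1 to 74.2). All genes were marked in 18 of the 24 clusters of 2 to 9 genes. Clusters of 2 to 4 genes had 37 of 42 marked and those of 5 to 9 genes 37 of 44. The 7 clusters of at least 10 genes held 208 genes, 53.9% of all, and 122 of them were marked.

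One large cluster was without any marked gene. On chromosome 6 from 48133937 to 48363603 lie 48 cysteine tRNA genes, and 0 of 48 were marked, which allows a share of up to 6.25% when a count of 0 is taken to allow 3, or 7.41% as the Wilson limit. Of the same windows moved by 100 kb, some of which still lay inside the cluster, 2 met a peak. The part of repeated sequence in the count of 0 was not tested. The span of 230 kb held 5 peaks, 2.16 per 100 kb against 5.10 over the autosomes, with 14 to 35 fragments, and the nearest peak to one of its tRNA genes was 1945 bp away. Without this cluster 79.7% of clustered genes (74.2 to 84.2) and 75.7% of all tRNA genes (70.9 to 80.0) were marked, and the share over 5 kb from protein-coding gene ends was 72.6%.

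**Figure D3:**
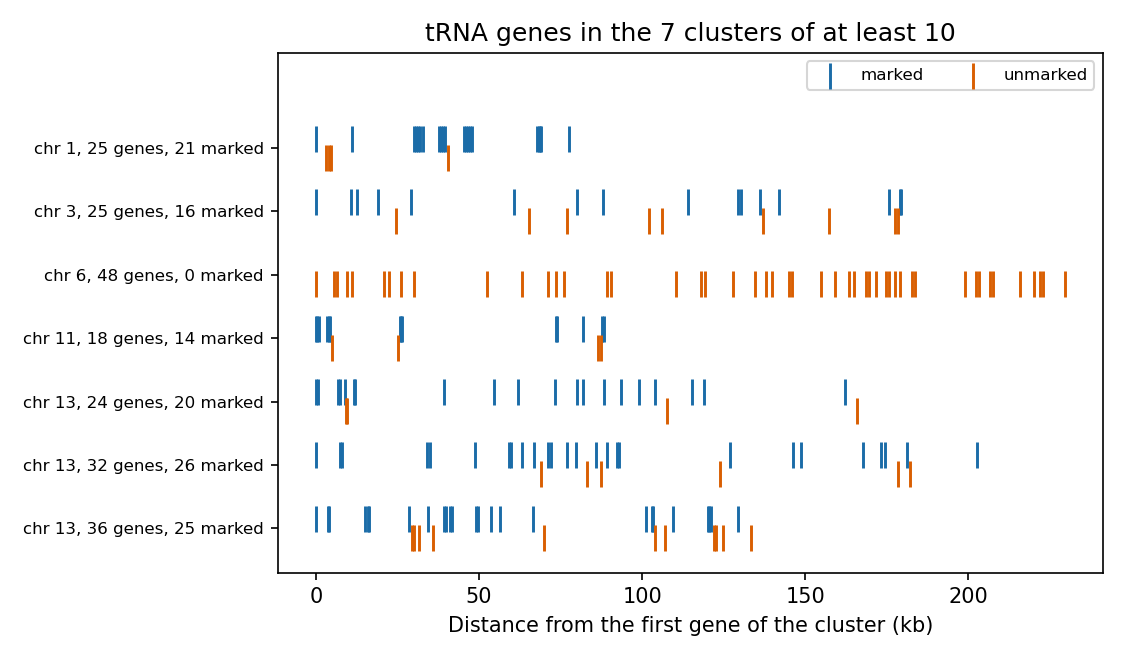
Position of each tRNA gene in the 7 clusters of at least 10 genes, as distance from the first gene (x axis, kb), with 1 row per cluster; marked genes are above the row line in blue and unmarked genes below it in orange. The cysteine cluster of chromosome 6 has 0 of 48 genes marked, and the other 6 clusters have between 64% and 84% marked.

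In the other 6 large clusters between 64% and 84% of genes were marked. The cluster of chromosome 1 from 171033942 to 171111515, made of glycine, aspartate, leucine, glutamate, asparagine and valine genes, had 21 of 25 marked, against 0 of 25 moved windows. The cluster of chromosome 3 from 96322074 to 96501518 had 16 of 25 marked, against 14 moved windows. On chromosome 11, from 69037003 to 69125248, 14 of 18 were marked, against 13 moved windows, and all 18 lay within 5 kb of a protein-coding gene end such as those of Per1 and Aurkb. In the clusters of chromosomes 3 and 11 the share was thus close to that of moved windows. The chromosome 3 cluster spans 179 kb, so some of its windows moved by 100 kb still lay inside it. They are not a background away from the cluster.

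The remaining 3 large clusters lie on chromosome 13. Each is longer than the move of 100 kb, so some of its moved windows still lay inside it. From 21160785 to 21326789, 20 of 24 genes were marked, against 5 moved windows, and from 21848022 to 22050767, 26 of 32, against 14, with histone genes such as H2ac12 and H2bc11 as neighbours. From 23397060 to 23530419, 25 of 36 were marked, against 10. In that last cluster the 5 tyrosine genes n-TYgta4 to n-TYgta8 were all unmarked, with nearest peaks 1082 to 2253 bp away. In the smaller cluster of chromosome 13 from 23270421 to 23317538 all 9 genes were marked, each at least 20098 bp from a protein-coding gene end. There 1 moved window met a peak, and the moved span reaches into the last large cluster.

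Clustered and other genes differed in fold more than in pileup. The 198 peaks at clustered genes had a median fold of 3.47, 40 fragments and a local background of 10.7 fragments. The 104 peaks at other tRNA genes had a median fold of 4.57, 38.5 fragments and a background of 7.05. Counting peaks only from a fold of 5 upwards, 13.9% of clustered genes and 39.1% of the others were marked, so the close shares of 66.7% and 65.2% above do not hold at that threshold. They do not hold without the chromosome 6 cluster either, at 79.7% (74.2 to 84.2) of clustered genes against 65.2% (55.1 to 74.2) of the others. Over 5 kb from every other gene end, 60.9% of 133 clustered genes (52.4 to 68.8) and 37.5% of 40 others (24.2 to 53.0) were marked, with overlapping intervals. Clustered genes were also less often under a peak, at 24.8% against 45.7% of the others. The part of the higher local background in these differences was not tested.

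Each of the 20 amino acids had marked tRNA genes, also over 5 kb from protein-coding gene ends. All 7 phenylalanine genes were marked (100%, 64.6 to 100), 14 of 15 proline genes (93.3%, 70.2 to 98.8) and 15 of 17 threonine genes (88.2%, 65.7 to 96.7). The lowest shares were those of cysteine with 6 of 57 (10.5%, 4.91 to 21.1), tyrosine with 5 of 10 (50%, 23.7 to 76.3) and glutamine with 9 of 15 (60%, 35.7 to 80.2). Outside the cluster of chromosome 6, 6 of 9 cysteine genes were marked. With that cluster left out, the Wilson intervals of all these amino acids overlap, and genes of 1 amino acid share clusters, so no order among them is read from these shares.

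**Figure D4:**
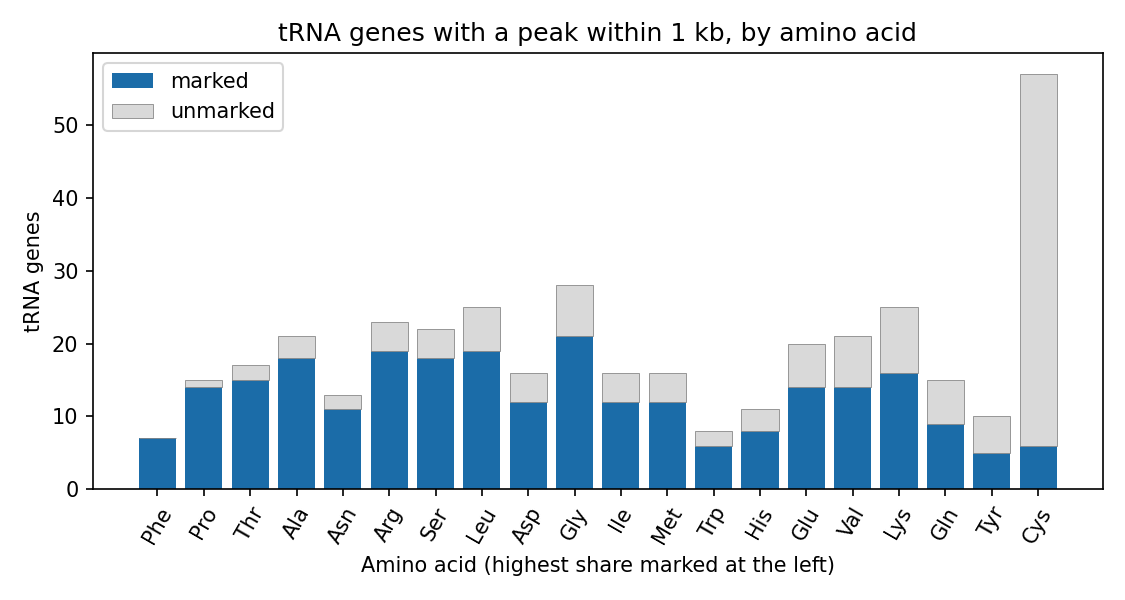
Number of tRNA genes (y axis) by amino acid (x axis, ordered by the share marked), with marked genes in blue and unmarked genes in grey. Cysteine stands apart with 51 unmarked genes, and each of the other 19 amino acids has at least 50% marked.

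Of 48 anticodons, 45 had a marked gene and 41 a gene under a peak. All genes were marked for 14 anticodons, among them alanine agc with 13 of 13, phenylalanine gaa with 7 of 7, arginine acg and proline agg with 6 of 6 each. The anticodons with no marked gene were histidine atg, serine gga and valine tac, with 1, 1 and 2 genes. Isoleucine tat and glycine acc each have 1 gene in the table, and both were marked: n-TItat14 by a peak of 1245 bp over the gene and n-TGacc1 by a peak 120 bp away with 38 fragments. n-THatg1 and n-TSgga1 were 3567 and 6832 bp from the nearest peak.

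Peaks at tRNA genes had summit pileups like those of protein-coding gene ends and lower folds. Their median pileup was 40 fragments (38 to 41), from 13 to 103, against 39 for 21633 peaks at protein-coding gene ends and 28 for all autosomal peaks. Their median fold was 3.88 (3.56 to 4.12), from 2.14 to 9.89, against 5.37 at protein-coding gene ends and 6.07 for all autosomal peaks. The local background was 9.37 fragments, against 6.34 and 3.18. A fold of at least 5 was reached by 72 of 302 peaks (23.8%), against 57.2% at protein-coding gene ends. Median width was 570 bp (488 to 629), against 880 bp at protein-coding gene ends and 598 bp for all autosomal peaks. Of the 302 peaks, 234 were not at a protein-coding gene end, and their medians were 40 fragments and a fold of 3.79.

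**Figure D5:**
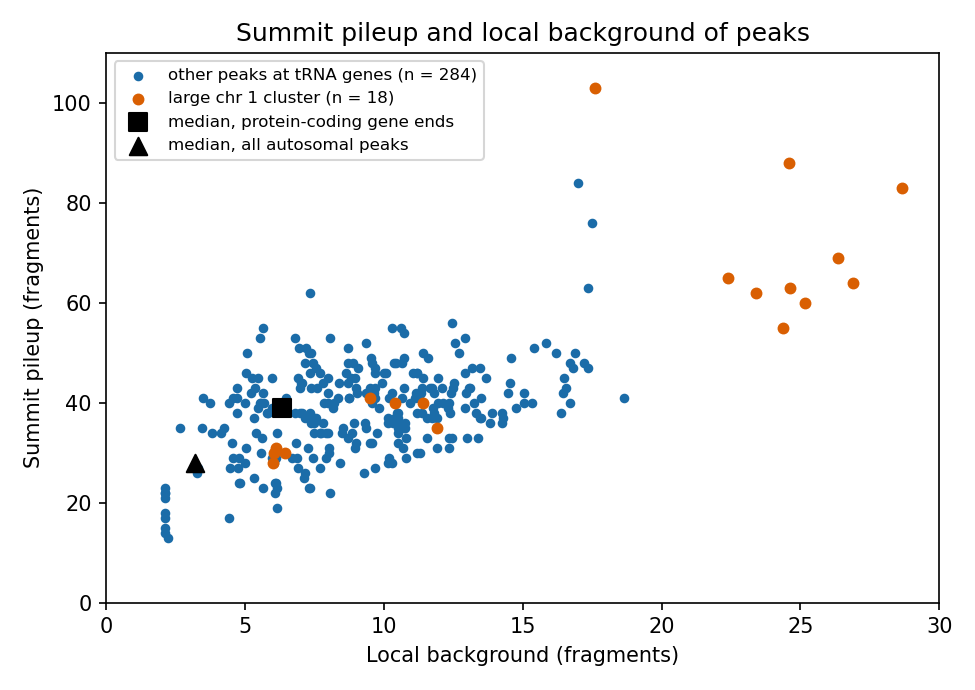
Summit pileup (y axis, fragments) against local background (x axis, fragments) for the 302 peaks at tRNA genes, with those of the large chromosome 1 cluster in orange and the medians of peaks at protein-coding gene ends and of all autosomal peaks in black. Of 13 peaks with at least 60 fragments, 9 are in the chromosome 1 cluster, and the highest has 103.

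The highest pileups lay in the chromosome 1 cluster and in the last large cluster of chromosome 13. Of 13 peaks with at least 60 fragments, 9 were in the chromosome 1 cluster. The highest, 103 fragments (84.1 to 125), was a peak of 1152 bp at n-TEctc5, n-TGtcc1 and n-TDgtc3, from 171063741 to 171064892, with a fold of 5.59. Peaks of 88 and 83 fragments at n-TEctc7 with n-TGtcc4 and at n-TEctc8 with n-TGtcc5 had folds of 3.48 and 2.83. Their local backgrounds were 24.6 and 28.7 fragments, and 28.7 was the highest at any peak of a tRNA gene.

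Of the next pileups, 69, 65, 64 and 63 were also in the chromosome 1 cluster, at folds of 2.33 to 2.82. On chromosome 13 the peaks of n-TAagc12 with n-TVaac2, of n-TVcac2, n-TAagc7 and n-TVaac5, and of n-TKctt11 with n-TPagg3 had 84, 76 and 63 fragments. Along the chromosome 1 cluster the order glutamate, glycine, aspartate, leucine, glycine recurs, and multi-copy sequence was not filtered. Whether repeated sequence takes part in these pileups was not tested.

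The widest peak, 2223 bp with 76 fragments, was that of n-TVcac2, n-TAagc7 and n-TVaac5. n-TEctc12, near the start of Acp6, had 1953 bp, n-TAagc16, shown above, 1884 bp, n-TVaac4 with n-TAagc10 1867 bp and n-TQttg6 1862 bp. All 5 overlapped a tRNA gene, which their width makes more likely. Of the 302 peaks, 216 touched the window of 1 tRNA gene, 61 those of 2 and 25 those of 3 or 4.

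Genes of the RNA polymerase III machinery were nearly all marked, where 74.8% of all autosomal protein-coding genes had a peak within 1 kb of an end. All 13 subunit genes were marked, among them Polr1c with a fold of 6.63 and 38 fragments and Polr3f with 6.54 and 42. Of 17 genes of initiation factors and regulators 16 were marked, led by Snapc4 at 9.10, Snapc5 at 8.31 and Brf2 at 7.90. The SNAPC proteins and Brf2 serve RNA polymerase III genes with a promoter outside the gene, unlike tRNA genes. Snapc3 was unmarked at its ends and held 1 internal peak.

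Of 20 genes of tRNA processing and export 19 were marked, among them Rtcb at 9.19, which encodes the tRNA ligase, and Pop4 at 7.33, a subunit of RNase P. Rpp40, another RNase P subunit gene, was unmarked at its ends with 1 internal peak. All 20 genes of tRNA modification were marked, led by Elp3 at 9.36, Trit1 at 8.76 and Wdr4 at 8.19. Over all lists, 74 of 78 genes were marked (94.9%, 87.5 to 98.0), 8 of them the noncoding genes that follow. The share is a description and nothing particular to these lists is read from it.

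Of 8 other genes transcribed by RNA polymerase III, 6 were marked (75%, 40.9 to 92.9), against the 62.8% of all annotated autosomal genes. These 8 genes are short, while the 62.8% also counts peaks inside long genes. The short miRNA, snoRNA and snRNA genes had 23.7%, 20.2% and 14.6%. Bc1, a neuronal small RNA gene, had the highest fold, 8.37 (6.23 to 11.0) with 49 fragments, from a peak of 1661 bp over the gene. Rny1, a Y RNA gene, followed with 7.30 and 40 fragments, and Rn7sk, whose RNA holds back the elongation factor P-TEFb, with 6.79 and 38. Vaultrc5, Rmrp and Rpph1, for the vault RNA and the RNAs of RNase MRP and RNase P, had 6.77, 5.77 and 3.84. Rny3 and Rnu6 were unmarked.

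Of 10 germ cell markers 8 were marked, Nanos2 and Nanos3 being the exceptions, a share (80%, 49.0 to 94.3) near the 74.8% of all protein-coding genes, so it does not check the label. Of Sertoli markers 5 of 8, of Leydig and interstitial markers 2 of 6, and of endothelial and blood markers 2 of 6 were marked. The 5 marked Sertoli markers were Sox9, Amh and Wt1, at folds of 2.54 to 3.59, and Dhh and Clu, at 6.93 and 8.32. Cyp11a1, Acta2, Tek and Hbb-bt, of the other lists, had folds of 9.90, 10.1, 8.63 and 11.1. The unmarked Sertoli markers Gata4, Nr5a1 and Amhr2 held 14, 4 and 3 internal peaks, and Cyp17a1, Hsd3b1, Insl3 and Star had no peak at their ends or inside. The part of other cells in the marks at tRNA genes was not tested.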

How the data were processed

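The submitters' processing notes name MACS2 2.1.0, deepTools 3.5.1, Bowtie2 2.5.0, Trim Galore, bedtools 2.27.1 and SAMtools 1.16.1, and the builds mm10 and sacCer3, with roles and settings not given in the sources used. The authors deposited 1 peak list with a fold (a ratio), a −log10 p, a −log10 q and a score for each peak, which are the authors' values and were used only within the list. Pileup and background were recovered from the fold and −log10 p by a Poisson tail, which solved 135053 of 135064 peaks and all 302 at tRNA genes; the total depth is not given.

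The members, lists and tests were chosen with earlier results of these data known. Both ends of protein-coding genes from the RefSeq table were used, and start sites where stated, since that table has no strand. Distances run from the tRNA gene. Named genes follow a written rule: highest folds, pileups and widths, distant genes of highest fold, large clusters, extreme amino acids, and list leaders with unmarked members. Some genes that the rule names are not reported here. Others were chosen after their values were seen. The planned A box spelling (TGGC, any 2 bases, AGTGG) was in 0 of 4 genes, so wider letters were used, and promoters of tRNA genes themselves were not analysed here. As a check of the code only, intervals planted beside isolated tRNA genes were found in 60 of 60 cases among 122 windows, with 0 extra. Pileups simulated by the same formula were recovered in 2000 of 2000 cases, which does not check that the formula holds for the deposited list. Scripts ran in Python 3.11.15 with matplotlib 3.10.9, statsmodels 0.14.6, scipy 1.17.1, pandas 2.3.3 and numpy 2.4.6.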

Additional observations from a re-analysis of the deposited data

How the results depend on the processing

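Shares moved with the window, with a fold threshold and with the distance to other genes. With no flank the shares were 29.8% of all tRNA genes, 44.2% within and 24.5% over 5 kb of a protein-coding gene end, 24.8% in and 45.7% outside clusters, 37.5% as the median amino acid and 87.2% of the RNA polymerase III lists. With 500 bp they were 57.3%, 71.2%, 52.1%, 55.4% and 66.5% (all, within, over, in clusters, median amino acid), and with 2500 bp 76.9%, 96.2%, 69.9%, 78.2% and 89.2%. Counting only folds from 5 upwards they were 19.9%, 28.8%, 16.7%, 13.9% in and 39.1% outside clusters, 24.0% and 73.1% of the lists. At that threshold 12.2% of genes had a peak over them. Without a fold threshold, 23.8% of genes had a peak over the whole gene. With summits inside the window the median amino acid had 69.2%. Without ends of non-tRNA genes within 5 kb, 55.5% of all, 60.9% of clustered and 37.5% of other genes were marked, and with a distance of 20000 bp 45.3% of distant genes. Leaving out the chromosome 6 cluster, chosen after the data were seen, gave 75.7%, 72.6% over 5 kb and 79.7% in clusters. Peaks over the gene had a median fold of 4.71 and width of 836 bp. The other 71 such values moved by less than their counting interval, those with a −log10 q of at least 5, at least 20 fragments, 200 bp shared, joined windows, other join gaps and start sites among them. Counting the 5 genes at scaffold coordinates as unmarked, and distance to start sites, were also chosen after the data were seen. Among the shares of single amino acids, 41 values moved and 119 did not. Tyrosine went from 5 of 10 marked to 10 of 10 with 2500 bp and to 0 of 10 from a fold of 5 upwards. Phenylalanine went from 7 of 7 to 3 of 7 with no flank. No paired analysis was possible because there is 1 library.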

Other observations

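Outside the autosomes, a peak lay within 1 kb of 9 of 17 X-linked tRNA genes (52.9%, 31.0 to 73.8 by Wilson), and of 2 of 17 windows moved by 100 kb. Of the 12 alanine genes among them, 6 were marked, and of the other 5, 3. Summit pileups were 13 to 29 fragments, led in fold by n-TAtgc1 at 8.85 and n-TVtac3 at 8.07. n-TVtac3 carries the valine anticodon tac, for which no autosomal gene was marked.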
